A study of Homo sapiens with 74 samples.

Results

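The guanylate-binding proteins studied here were GBP1, GBP2, GBP3, GBP4 and GBP5, 5 genes of the 28131 listed in each deposited gene table. They were taken by symbol, and the family was chosen by the counts of GBP4, which are near 0 in control K562 cells and high in the K562 DOT1L knockout. Every value of these genes from the DOT1L knockout against control is given below as a description with no test. Messenger RNA was sequenced in K562 and HEL, which are established human erythroleukaemia cell lines. The series has 74 samples, of which 13 hold RNA-seq data and fall into 5 groups. K562 had wild-type controls, a DOT1L knockout (KO, DOT1L-/-) and an ENL knockout (ENL-/-), whereas HEL had controls and a DOT1L knockdown (KD). DOT1L is the methyltransferase that places methyl groups on lysine 79 of histone H3, and ENL, encoded by MLLT1, is a chromatin reader found in DOT1L-containing complexes. The labels do not say how the knockouts and the knockdown were made, whether a knockout line is 1 clone, or whether replicates were separate cultures. P-values therefore measure only the spread between these samples, which may be technical.

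Guanylate-binding proteins are large GTPases that are best known as products of interferon-stimulated genes. Interferon-gamma acts through its receptor, the kinases JAK1 and JAK2, and transcription factors that include IRF1, and GBP promoters are classical targets of IRF1. The proteins assemble on the surface of vacuoles and bacteria inside infected cells. There they recruit further family members and the inflammatory caspase CASP4. They have been studied mostly in macrophages and epithelial cells, and much less in erythroid cells.

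The 5 genes lie in 1 cluster on the minus strand of chromosome 1 (GRCh38 coordinates, as the tables list them). GBP3 spans chr1:89006677-89022866, GBP1 spans chr1:89052321-89065208, GBP2 spans chr1:89106133-89126159, GBP4 spans chr1:89181145-89198942 and GBP5 spans chr1:89258951-89272861. GBP7, GBP6 and the pseudogene GBP1P1 complete the cluster. No other gene of the tables has an exon inside the span of any of these 8 genes. GBP family members are similar in sequence, above all GBP1, GBP3 and GBP1P1, so reads that match several of them could have been split or dropped in counting and their values are uncertain.

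Promoter sequences from RefSeq (GRCh38.p14) were matched for GBP1, GBP3 and GBP4 among the 5 genes. They are shown because all 5 members were higher in the DOT1L KO libraries and because each window holds a motif bound by interferon-regulated factors. Each stretch runs 5′ to 3′ on the strand of the gene, from 150 bases before the RefSeq start to 30 bases from it. Capitals mark the core of the interferon-stimulated response element (ISRE: GAAA, any 2 bases, GAAA), which in these promoters reads as its reverse complement.
GBP4: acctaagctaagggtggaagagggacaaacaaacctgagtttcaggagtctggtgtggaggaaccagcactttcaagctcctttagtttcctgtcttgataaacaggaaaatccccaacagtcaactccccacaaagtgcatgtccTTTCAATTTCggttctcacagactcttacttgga
GBP1: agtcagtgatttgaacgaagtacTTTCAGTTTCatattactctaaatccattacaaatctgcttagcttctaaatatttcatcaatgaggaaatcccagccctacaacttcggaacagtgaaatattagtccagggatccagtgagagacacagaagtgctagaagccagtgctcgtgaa
GBP3: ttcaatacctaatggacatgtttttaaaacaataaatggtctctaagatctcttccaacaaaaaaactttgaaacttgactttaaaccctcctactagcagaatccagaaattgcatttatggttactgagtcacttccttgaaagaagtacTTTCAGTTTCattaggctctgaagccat
The stretches lie at chr1:89198913-89199092 for GBP4, chr1:89065179-89065358 for GBP1 and chr1:89022837-89023016 for GBP3, all on the minus strand. Counting from 1 at the start site, with no position 0, the ISRE core covered positions -4 to 6 in GBP4, -127 to -118 in GBP1 and 3 to 12 in GBP3. The letters were TTTCAATTTC in GBP4 and TTTCAGTTTC in both GBP1 and GBP3. Over windows of 300 bases (250 before the start and 50 from it), searched on both strands, 3.57% of 35116 RefSeq promoters held the ISRE core. The share was 2.93% of the 15438 promoters that belong to genes tested in K562. The gamma-activated site (GAS), TTCNNNGAA, the motif of STAT dimers, was found in GBP3 at positions -15 to -7 and was not found in the windows of GBP1 and GBP4. It occurred in 7.66% of all promoters and in 6.19% of those of genes tested in K562. The windows of GBP6 and GBP7 held neither motif. A motif match describes letters in a window and says nothing of whether a factor was bound.

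Total counts were 15404944 to 29236703 fragments in the 8 distinct K562 libraries and 12151495 to 12811688 reads in the 4 HEL libraries. K562 control columns 2 and 3 were identical in all 28131 genes and were counted as 1 library, which left 2 control libraries. A count of 0 allows up to 3 counts, which was worth 0.101 to 0.244 CPM (counts scaled to a common total with TMM) in the different libraries. Such limits cover counting error only. The targeted genes were lower in the groups named for them: DOT1L mRNA fell by 0.53 on the log2 scale in the DOT1L KO, with a standard error (SE) of 0.06, and by 1.64 in the HEL KD (SE 0.06), and MLLT1 fell by 0.48 in the ENL KO (SE 0.05). Counts over whole genes do not show whether the remaining RNA encodes protein. All 10 erythroid markers (such as GATA1 and HBG1) reached 1 CPM in each K562 group and in the HEL KD, and 9 of 10 did in the HEL control.

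GBP4, which acts late in the GBP coat on bacteria by drawing in CASP4, went from near silence to a clearly detected level in the DOT1L KO. Its counts were 7 and 2 in the K562 controls against 483, 651 and 417 in the DOT1L KO. Every DOT1L KO library stood far above both controls. Scaled for depth, the level was 0.210 ± 0.163 CPM in the controls (SD, n = 2) and 21.2 ± 1.29 CPM in the DOT1L KO (SD, n = 3). The fitted log2 fold change was 6.62 (SE 0.24), and the ratio of pooled counts was 101, with an exact 95% interval of 53.1 to 221 for counting error. Of 14301 genes tested, 55 had a larger log2 fold change. The size rests on very few control counts: it was 7.72 without control 1 and 6.00 without control 2.

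GBP5, a prenylated member known from the Golgi and from limiting the maturation of viral envelope proteins, was almost as far from its control level. Its counts were 1 and 4 in the controls against 238, 334 and 200 in the DOT1L KO. The level was 0.118 ± 0.101 CPM in the controls (SD, n = 2) and 10.5 ± 0.943 CPM in the DOT1L KO (SD, n = 3). The groups did not overlap. Fitted, the log2 fold change was 6.42 (SE 0.29), 5.76 without control 1 and 7.65 without control 2, and the pooled ratio was 90.5 (38.6 to 280).

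GBP2, another prenylated member of the coat, was the only one of the 5 with more than the 3-count floor in both K562 controls. It had 14 fragments in each control and 164, 219 and 167 in the DOT1L KO. The level was 0.657 ± 0.00790 CPM (SD, n = 2) against 7.58 ± 0.278 CPM (SD, n = 3), again with every DOT1L KO library above the controls. This is a log2 fold change of 3.52 (SE 0.25). Leaving out any 1 library kept it between 3.49 and 3.54.

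GBP1, the member that binds bacterial surfaces and starts the coat, stayed scarce in every K562 library. It had 0 and 1 fragments in the controls against 14, 22 and 19 in the DOT1L KO. GBP3, which joins the GBP1 coat, had 0 and 1 in the controls against 14, 17 and 12 in the DOT1L KO. Both genes were therefore higher in each DOT1L KO library, at a depth that fixes the size poorly. The pooled ratio was 32.2 for GBP1, with an interval of 5.55 to 1297, and 25.2 for GBP3, with an interval of 4.29 to 1019. The log2 fold change of GBP1 was 4.70 (SE 0.83), 3.84 without control 1 and 7.04 without control 2. That of GBP3 was 4.35 (SE 0.74), 3.49 without control 1 and 6.68 without control 2.

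All 5 members were thus higher in every DOT1L KO library than in every control library, which was also the case for 35.2% of all genes tested in K562. Of all genes tested, 26.9% passed the threshold used for tests here (adjusted p under 0.05) as higher in the DOT1L KO. Because GBP4 was chosen in this contrast, nothing is read from these counts. All 5 members passed the filter on low counts, but GBP1 and GBP3 passed through the DOT1L KO libraries alone, and GBP4 and GBP5 through the knockout libraries.

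**Figure D1:**
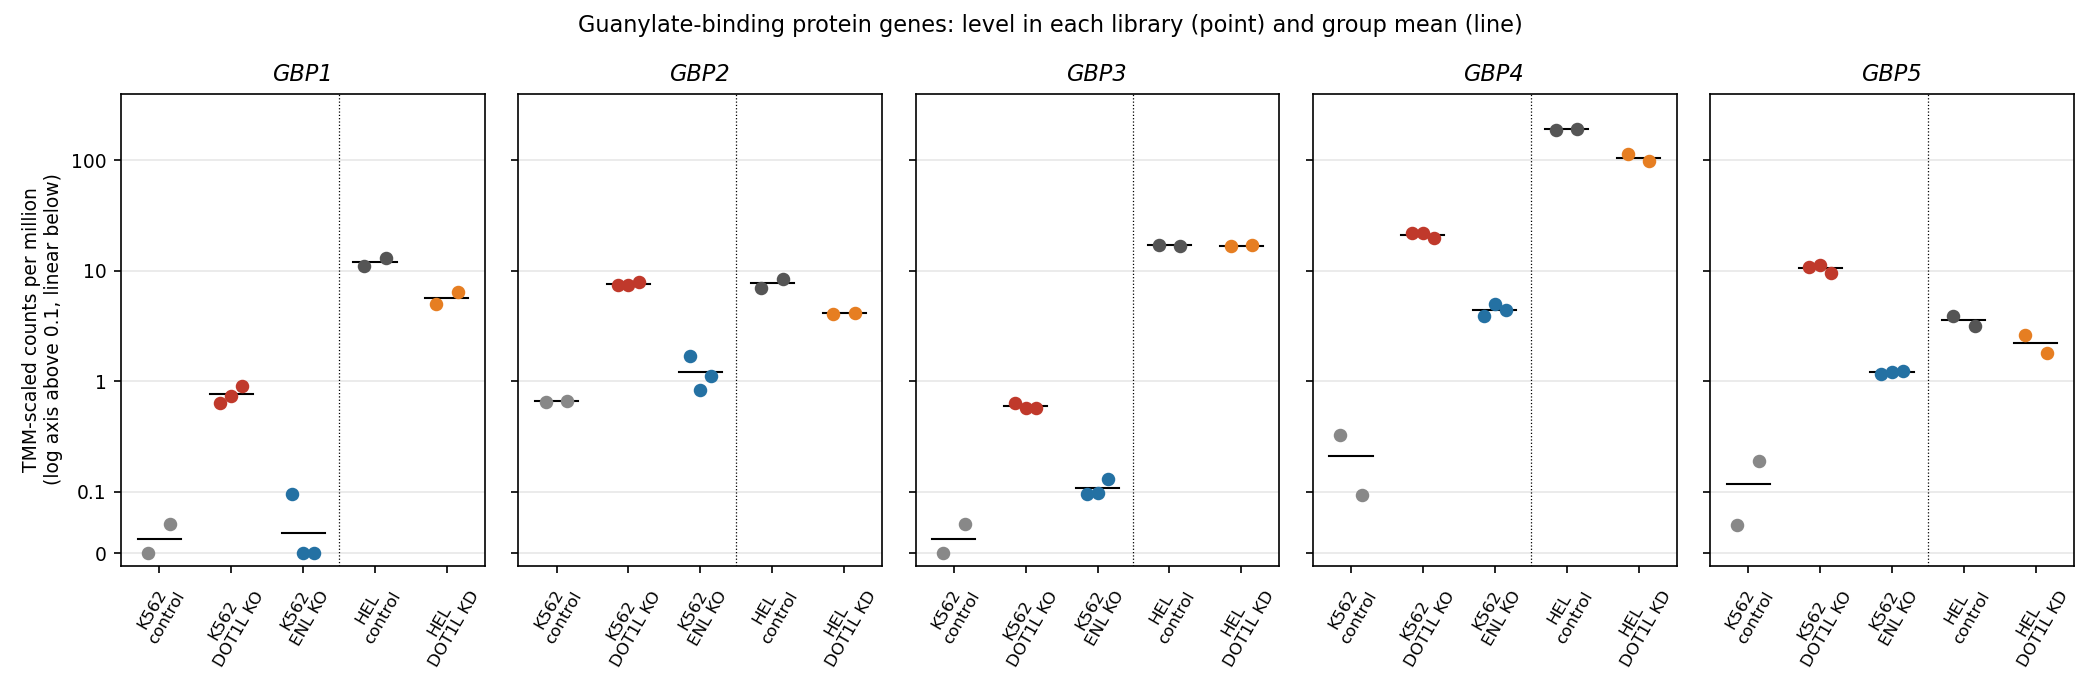
TMM-scaled CPM of the 5 genes (vertical axis, logarithmic above 0.1 and linear below) in each library, by group, with points for libraries and lines for group means. GBP4 lies at 0.0946 to 0.325 CPM in the K562 controls, 19.7 to 22.0 in the DOT1L KO, 3.91 to 4.96 in the ENL KO, 189 to 190 in the HEL controls and 97.3 to 113 in the HEL DOT1L KD.

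The silent relatives in the cluster showed the same direction at very low counts. GBP6 had no fragment in either control and 13, 17 and 16 in the DOT1L KO, which makes it at least 8.99-fold higher when the control group is set at 3 counts in all. GBP1P1 had 0 and 1 in the controls against 13, 19 and 19 in the DOT1L KO, a pooled ratio of 29.9 (5.13 to 1204). GBP7 had 0 and 1 in the controls against 3, 3 and 7 in the DOT1L KO, a pooled ratio of 7.62 (1.14 to 324), and did not pass the filter. GBP6 and GBP7 had, in the ENL KO, at most 1 fragment per library, and GBP1P1 had 2, 6 and 1.

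The ENL knockout shows whether the family also differed in cells that lack another protein of the DOT1L complex, and its libraries took no part in choosing the family. GBP4 was intermediate there. Its counts were 81, 102 and 68, or 4.44 ± 0.526 CPM (SD, n = 3), and no ENL KO library overlapped the controls or the DOT1L KO. The log2 fold change against control was 4.36 (SE 0.31), 5.47 without control 1 and 3.75 without control 2, and 20 genes tested had a larger one. The control libraries of this comparison are those in which GBP4 was chosen, so its p-value is not given. The DOT1L KO and ENL KO comparisons share these controls.

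GBP5 had 24, 25 and 19 fragments in the ENL KO, or 1.20 ± 0.0405 CPM (SD, n = 3). All ENL KO libraries were above the controls and below the DOT1L KO. The log2 fold change was 3.29 (SE 0.44), 2.63 without control 1 and 4.53 without control 2. GBP5 passed the filter on low counts only through knockout libraries, where it is high, so its p-value is not given. GBP2 had 35, 17 and 17 fragments, or 1.21 ± 0.440 CPM (SD, n = 3), with library 1 above the others and all 3 above the controls. Its log2 fold change of 0.89 (SE 0.33) was at the threshold (edgeR quasi-likelihood test, Benjamini-Hochberg adjusted p = 0.0465). The call was lost when any 1 K562 library other than ENL KO 2 was left out, with edgeR adjusted p-values (Benjamini-Hochberg) of 0.0530 to 0.248, the highest without ENL KO 1, where the log2 fold change was 0.53.

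GBP1 had 2, 0 and 0 fragments in the ENL KO and GBP3 had 2 in each library. For both genes the control and ENL KO libraries all lay at or under the floor of 3 counts, so no fold is given and a difference was not detectable at this depth. GBP2 was thus the only member with a test given in this comparison, in which 18.8% of all genes tested passed as higher and 22.2% as lower. Every ENL KO library was above every control for GBP2, GBP4 and GBP5, as it was for 28.8% of all genes tested. Nothing is read from that count, since the controls chose GBP4 and the filter admitted GBP5 through the knockouts. The ENL KO labels name no sequencing lane whereas those of the other K562 libraries do, so a batch and the ENL knockout cannot be told apart.

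Set directly against the ENL KO, the DOT1L KO had more RNA of every member, given as a description because its libraries chose the family. The log2 differences were 2.26 for GBP4 (SE 0.12), 3.13 for GBP5 (SE 0.16) and 2.63 for GBP2 (SE 0.19). For the scarce members they were 4.21 for GBP1 (SE 0.69) and 2.42 for GBP3 (SE 0.49). No DOT1L KO library overlapped an ENL KO library for any of the 5 genes.

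HEL control cells already transcribed the family, and 4 of the 5 members were lower in the DOT1L knockdown. GBP4 had 2364 and 2391 reads in the HEL controls against 1418 and 1196 in the KD. The level fell from 189 ± 0.664 to 105 ± 11.0 CPM (SD, n = 2 each), with both KD libraries below both controls. GBP4 fell by 0.85 on the log2 scale (SE 0.05, edgeR quasi-likelihood test, Benjamini-Hochberg adjusted p = 1.87e-22). Without any 1 library the log2 fold change stayed between -0.96 and -0.75.

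GBP1 had 137 and 165 reads in the HEL controls against 63 and 79 in the KD, or 12.0 ± 1.52 and 5.72 ± 1.00 CPM (SD, n = 2 each). It fell by 1.07 (SE 0.16, edgeR quasi-likelihood test, Benjamini-Hochberg adjusted p = 5.34e-08), the largest decrease of the 5. GBP2 had 88 and 105 reads in the controls against 51 in each KD library, or 7.68 ± 0.922 CPM in the controls (SD, n = 2) and 4.06 and 4.15 CPM in the KD libraries. It fell by 0.90 (SE 0.18, edgeR quasi-likelihood test, Benjamini-Hochberg adjusted p = 3.56e-05). The groups did not overlap for either gene.

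GBP5, the least abundant member in HEL, had 49 and 40 reads in the controls against 33 and 22 in the KD. It fell by 0.68 (SE 0.26, edgeR quasi-likelihood test, Benjamini-Hochberg adjusted p = 0.0234), with both KD libraries below both controls. The call was lost without control 1, where the log2 fold change was -0.52 (edgeR quasi-likelihood test, Benjamini-Hochberg adjusted p = 0.194). It was also lost without KD 2, where it was -0.43 (edgeR quasi-likelihood test, Benjamini-Hochberg adjusted p = 0.267), and with DESeq2 or no filter. GBP3 stood apart in value, with 215 and 212 reads in the controls against 210 and 209 in the KD. Its log2 fold change was -0.01 (SE 0.11, edgeR quasi-likelihood test, Benjamini-Hochberg adjusted p = 0.927), and its pooled ratio of 0.991 had a counting interval of 0.864 to 1.14. The sign of that value was positive under upper-quartile scaling and under library totals.

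Of the 5 members, 4 passed the threshold as lower in the HEL KD, where 28.0% of all 12635 genes tested passed as lower and 27.0% as higher. For the same 4 genes both KD libraries lay below both controls, as they did for 37.2% of the genes tested, and 38.7% had both above. GBP1P1 had 15 and 14 reads in the controls against 6 and 9 in the KD, a log2 fold change of -0.93 that did not pass (SE 0.45, edgeR quasi-likelihood test, Benjamini-Hochberg adjusted p = 0.0746). GBP6 had 2 to 5 reads and GBP7 had 4 to 6 reads per HEL library, too few to be tested. The direction of GBP1, GBP2, GBP4 and GBP5 in the HEL KD was opposite to that in the K562 DOT1L KO. The 2 lines differ in the manipulation (knockdown and knockout) as well as in the line, and the difference between them was not tested.

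**Figure D2:**
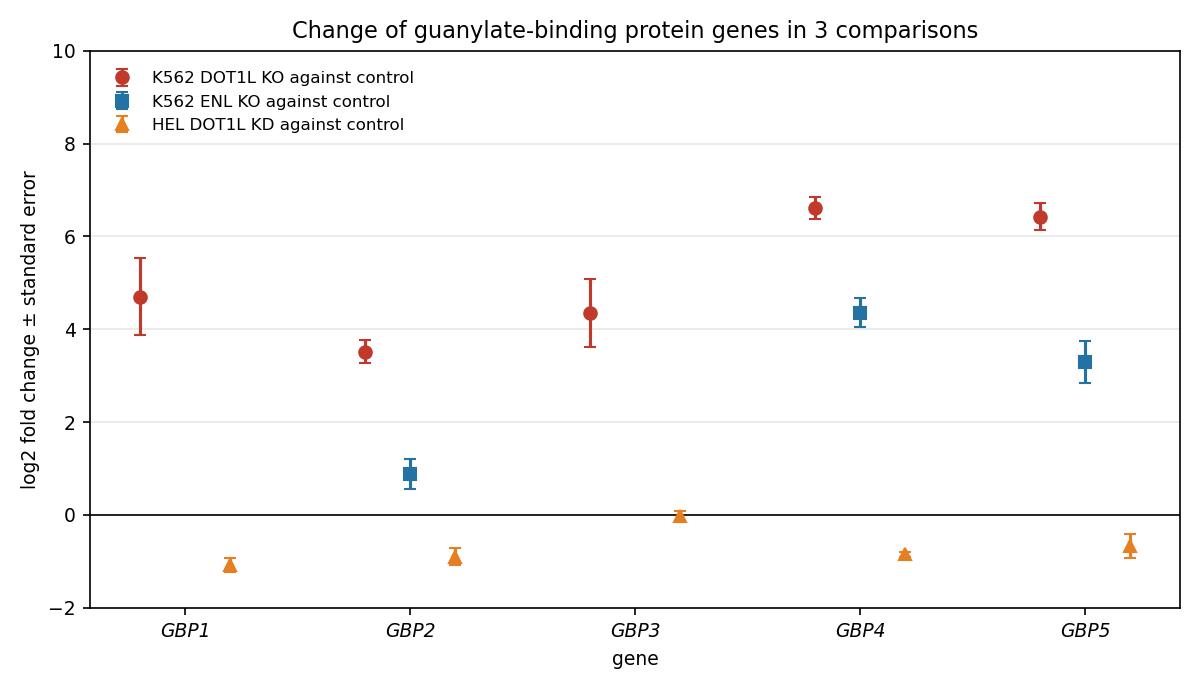
Log2 fold change against the control of the same line (vertical axis) with its standard error (bars) for each gene in 3 comparisons, leaving out GBP1 and GBP3 in the ENL KO, where both groups were at or under 3 counts. The DOT1L KO values run from 3.52 for GBP2 to 6.62 for GBP4, and the HEL KD values from -1.07 for GBP1 to -0.01 for GBP3.

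Levels of different genes were compared per kilobase of exonic length (RPKM, from TMM-scaled counts). In the HEL controls GBP4 led with 30.8 ± 0.108 RPKM (SD, n = 2), a level above that of 81.1% of the genes tested. GBP3 followed at 5.04, then GBP1 at 4.17, GBP2 at 1.86 and GBP5 at 0.875 RPKM. The KD kept that order, with GBP4 at 17.1 ± 1.78 RPKM (SD, n = 2) and GBP3 at 5.00. No neighbours in the order overlapped in either HEL group.

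The K562 DOT1L KO had another order. GBP4 was highest at 3.46 ± 0.210 RPKM (SD, n = 3), but GBP5 at 2.60 and GBP2 at 1.84 came next, and GBP1 at 0.264 and GBP3 at 0.176 were last, with no overlap between neighbours. Even GBP4 was then above only 37.0% of the genes tested in K562. GBP4 also led the ENL KO, at 0.722 RPKM, and GBP5 at 0.297 and GBP2 at 0.292 overlapped. GBP2 led the controls at 0.159 RPKM, and the other 4 members overlapped with their neighbours there at 0.00701 to 0.0342 RPKM.

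Summed over the 5 genes, the level was 0.237 ± 0.0218 RPKM in the K562 controls (SD, n = 2), 8.33 ± 0.339 in the DOT1L KO (SD, n = 3), with 1.36 ± 0.0342 in the ENL KO (SD, n = 3). It was 42.8 ± 0.658 in the HEL controls and 25.6 ± 1.50 in the HEL KD (SD, n = 2 each). GBP4 made up 41.5% of the sum in the DOT1L KO, 53.3% in the ENL KO, 72.1% in the HEL controls and 66.7% in the HEL KD. Values of the 2 lines are set side by side only, since one table counts fragments and the other reads. Fewer cells with the RNA and less RNA per cell cannot be told apart in these bulk libraries.

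**Figure D3:**
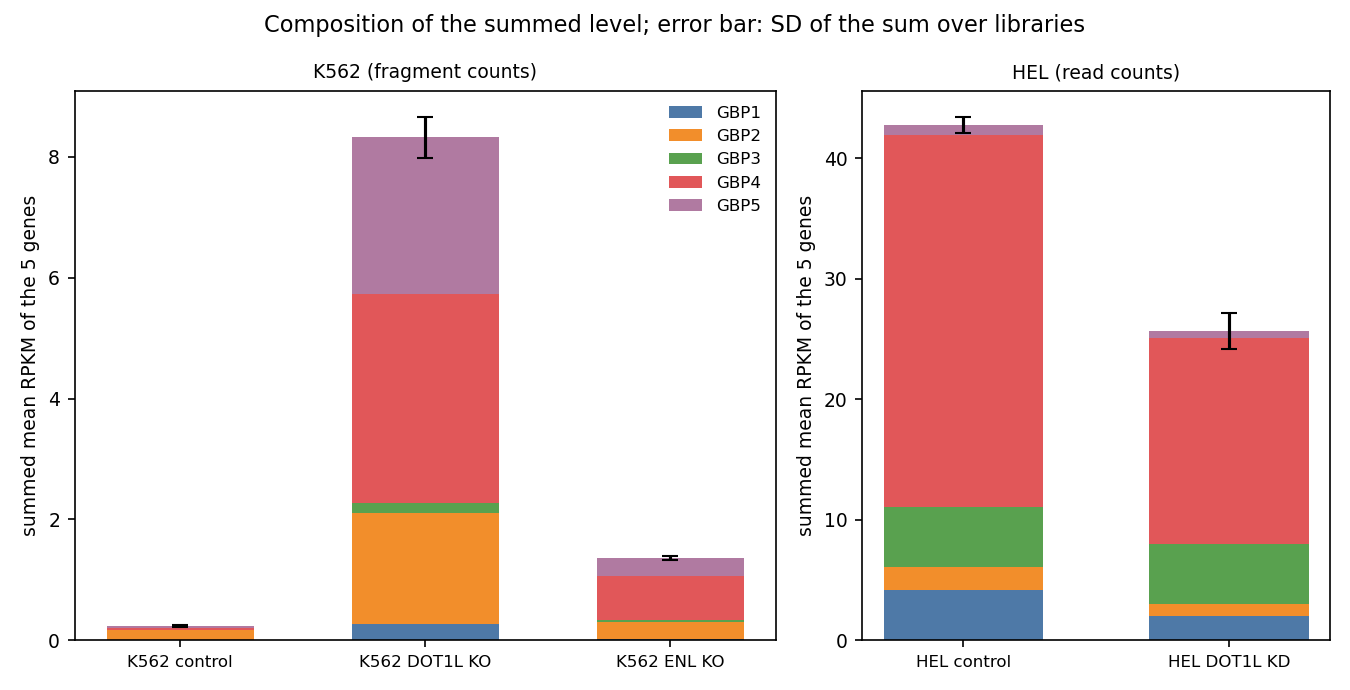
Mean RPKM of the 5 genes stacked by group (vertical axis from 0), with the K562 groups on the left and the HEL groups on the right on separate scales, and bars for the SD of the sum over libraries. GBP5 and GBP2 take a visible share of the sum in the K562 DOT1L KO, whereas GBP4 makes up 72.1% in the HEL controls.

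The genes around the cluster were read from the same fits. Of 12 other genes of the tables within 1 Mb of the members, the fits tested 9 (K562) and 11 (HEL). With DOT1L knocked out, 2 were higher and 2 lower (44.4%, against 51.1% of all genes tested). None of them moved by a log2 fold change of 1 or more, and the 9 values ran from -0.29 to 0.31. The nearest tested genes on the GBP3 side were KYAT3 and RBMXL1, whose exons overlap, and GTF2B, which encodes the general factor TFIIB. Their log2 fold changes were -0.10, -0.05 and -0.04. On the GBP5 side LRRC8B, LRRC8C and LRRC8D, which encode subunits of the volume-regulated anion channel, stood at -0.28, -0.01 and 0.24. The ENL KO had 2 of 9 neighbours higher and 2 lower (44.4%, against 41.0%), with values of -0.72 to 0.61. In the HEL KD 3 of 11 were higher and 5 lower (72.7%, against 55.0%), with values of -0.54 to 0.61.

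**Figure D4:**
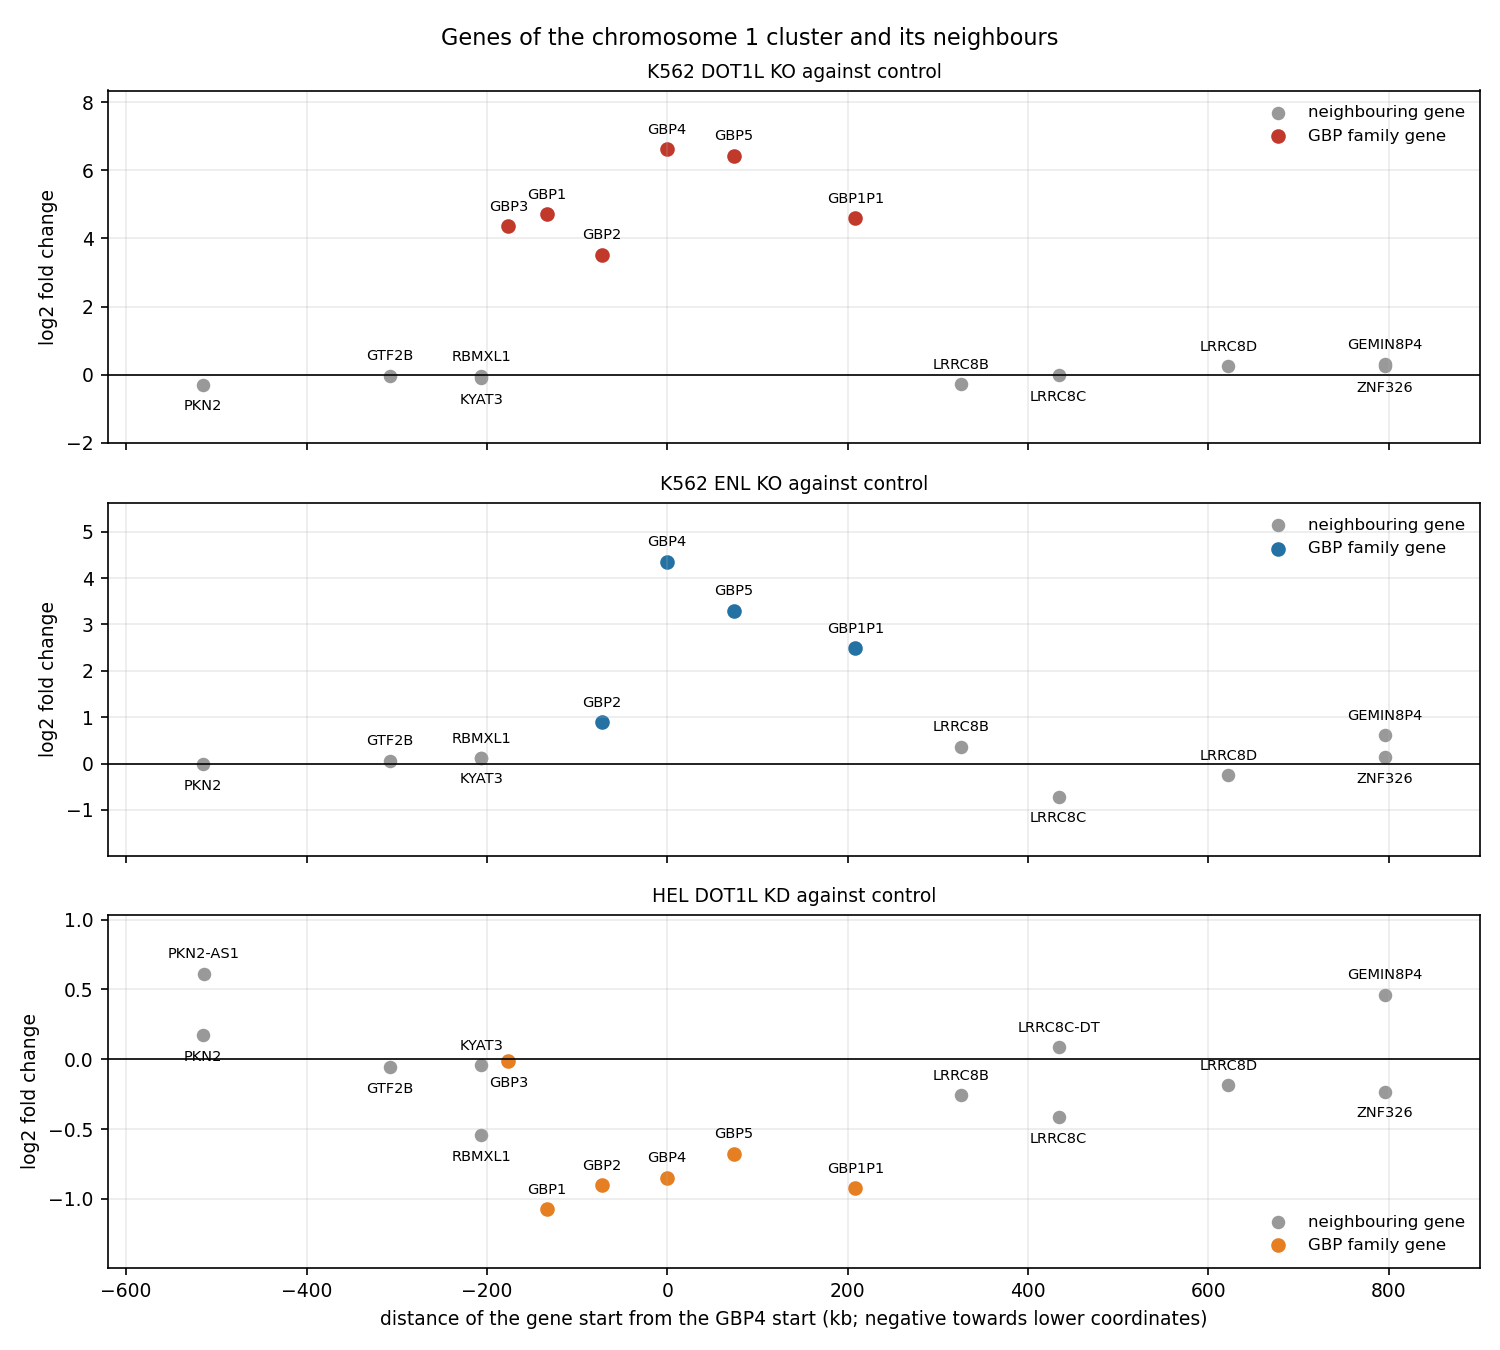
Log2 fold change (vertical axis) of tested GBP family genes (coloured) and neighbouring genes (grey) against the distance of each gene start from that of GBP4 in kilobases, leaving out GBP6 and genes at or under 3 counts in every library of both groups. In the DOT1L KO the neighbours lie between -0.29 and 0.31 and the GBP genes shown at 3.52 or more.

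Genes of the interferon pathway, other large GTPases and inflammasome genes were taken from lists of 107 genes in 9 roles, together called pathway genes. The 9 interferon genes of the list lay under the floor of 3 counts. Of these 9, 8 had 0 counts in all libraries of K562 and 8 in all of HEL, with at most 2 counts (IFNG, in the DOT1L KO) in a library. Interferon genes outside the list were not looked up. Of 73 pathway genes tested in K562, 28 were higher and 18 lower in the DOT1L KO (63.0%, against 51.1% of all genes tested). Of those 28, 9 had no control library over the cutoff of the filter on low counts and were admitted by knockout libraries where they are high, which raises the count. For the ENL KO these counts were 10 higher and 25 lower (47.9%, against 41.0%). In the HEL KD 19 of 78 were higher and 38 lower (73.1%, against 55.0%). The counts of each list below are to be set beside the shares of all genes tested. These were 26.9% higher and 24.2% lower in the DOT1L KO. They were 18.8% higher and 22.2% lower in the ENL KO, and 27.0% higher and 28.0% lower in the HEL KD.

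Of 6 receptor genes tested in K562, 2 were higher and 1 lower in the DOT1L KO. IFNGR1, which binds interferon-gamma, rose by 0.51 (SE 0.09) and its partner IFNGR2 fell by 0.90 (SE 0.18). The other higher gene, IFNLR1, a receptor subunit for lambda interferons, is named after its values were seen. It had 0 and 2 fragments in the controls against 12 to 36 in the DOT1L KO and passed the filter through knockout libraries alone. None of the 6 passed in the ENL KO with edgeR. Of the 3 kinases, JAK1 fell by 0.28 in the DOT1L KO (SE 0.08), a call lost without control 2, where the log2 fold change was -0.18. JAK2 fell by 0.31 in the ENL KO (SE 0.08), lost without control 2, where it was -0.26. In the HEL KD JAK2 fell by 0.64 (SE 0.03) and JAK1 rose by 0.23 (SE 0.03), and 1 of 4 receptors tested was higher and 3 lower.

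Among 10 tested factors, 3 were higher and 2 lower in the DOT1L KO. IRF1, a direct activator of GBP genes, rose by 1.36 (SE 0.10, edgeR quasi-likelihood test, Benjamini-Hochberg adjusted p = 7.51e-08) from 9.01 ± 0.374 CPM (SD, n = 2) to 23.1 ± 1.14 CPM (SD, n = 3). NFKB1 fell by 0.59 (SE 0.08) and STAT3 by 0.53 (SE 0.05).

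In the ENL KO IRF1 fell by 0.56 (SE 0.11) to 6.10 ± 0.291 CPM (SD, n = 3). The part of IRF1 in the levels of the GBP genes was not tested in any comparison. NFKB1 fell by 0.57 (SE 0.08), among 3 factors higher and 3 lower of 10. In the HEL KD 3 factors were higher and 6 lower of 10. IRF9 rose by 0.41 (SE 0.08) and NFKB1 fell by 0.40 (SE 0.05).

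Of the 6 inhibitors of the pathway, 2 were higher and 2 lower in the DOT1L KO. The feedback inhibitor SOCS3 fell by 0.51 (SE 0.12). SOCS1 fell by 0.46 (SE 0.14), a call lost without control 1 at -0.29, and the phosphatase PTPN6 rose by 0.71 (SE 0.20), lost without control 2 at 0.40. Without ENL, 4 were lower and none higher with edgeR. USP18, which restrains type I interferon signalling, fell by 3.58 (SE 0.22), SOCS1 by 1.59 (SE 0.15) and SOCS3 by 0.90 (SE 0.13). In the HEL KD 4 were again lower and none higher, among them USP18, which fell by 0.76 (SE 0.14), PTPN2 by 0.61 (SE 0.06) and PTPN6 by 0.45 (SE 0.03).

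Other targets of interferon-gamma were mixed in the DOT1L KO, with 7 higher and 5 lower of 16 tested and a median log2 fold change of 0.21, beside 0.01 over all genes tested. Of those 7, 3 (CD74, NLRC5 and TRIM22) passed the filter through knockout libraries alone, which raises both the count and the median. CD74, the invariant chain of MHC class II, rose by 5.22 (SE 0.22), from 5 and 9 fragments to 271, 350 and 281. NLRC5, an activator of MHC class I genes, had 1 and 3 fragments in the controls against 31, 41 and 38 in the DOT1L KO, a pooled ratio of 16.1 (6.12 to 60.2), with a log2 fold change of 3.94 that was 4.86 without control 2. The adhesion molecule ICAM1 fell by 1.28 (SE 0.07).

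With ENL knocked out, 3 of these targets were higher and 6 lower of 16, with a median of -0.59. APOL6 fell by 1.89 (SE 0.17) and CXCL11, a chemokine, by 1.01 (SE 0.21), while SECTM1 rose by 1.22 (SE 0.26). In the HEL KD 4 were higher and 6 lower of 15, with a median of -0.12. TRIM22, an antiviral protein, fell by 1.01 (SE 0.12) and WARS, a tRNA synthetase, by 1.00 (SE 0.06), while SECTM1 rose by 1.09 (SE 0.25).

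Type I interferon targets were mostly higher in the DOT1L KO, with 11 higher and 4 lower of 18 tested. Of all genes tested, 26.9% were higher there and 24.2% lower. The median of the targets was 1.33, which was the same with MX1, absent from the controls, set at its lower bound. Of those 11, 5 (MX1, MX2, XAF1, IFIT1 and IFIT2) passed the filter through knockout libraries alone, which raises both the count and the median. MX2, an antiviral GTPase related to the dynamins, had 2 and 3 fragments in the controls against 84, 126 and 116 in the DOT1L KO, a pooled ratio of 38.2 (16.2 to 119). XAF1, which promotes cell death, had 0 and 1 in the controls against 73, 91 and 70 in the DOT1L KO, a pooled ratio of 137 (24.4 to 5442), with a log2 fold change of 6.79 that was 5.92 without control 1 and 9.12 without control 2. IFITM3, which blocks virus entry, fell by 2.86 (SE 0.08).

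The ENL KO had 1 of these targets higher and 7 lower of 18, with a median of -0.06, or -0.19 without the 4 genes at or under 3 counts in all libraries of both groups. OAS3, an antiviral synthetase, fell by 2.21 (SE 0.14) and IFITM3 by 0.82 (SE 0.08). IFI6 fell by 0.91 (SE 0.24), a call lost without control 2 at -0.73. The HEL KD had 6 higher and 10 lower of 21, with a median of -0.19. BST2, which tethers budding viruses, rose by 1.53 (SE 0.18), RSAD2 rose by 0.77 (SE 0.09) and IFI44 fell by 0.60 (SE 0.08).

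**Figure D5:**
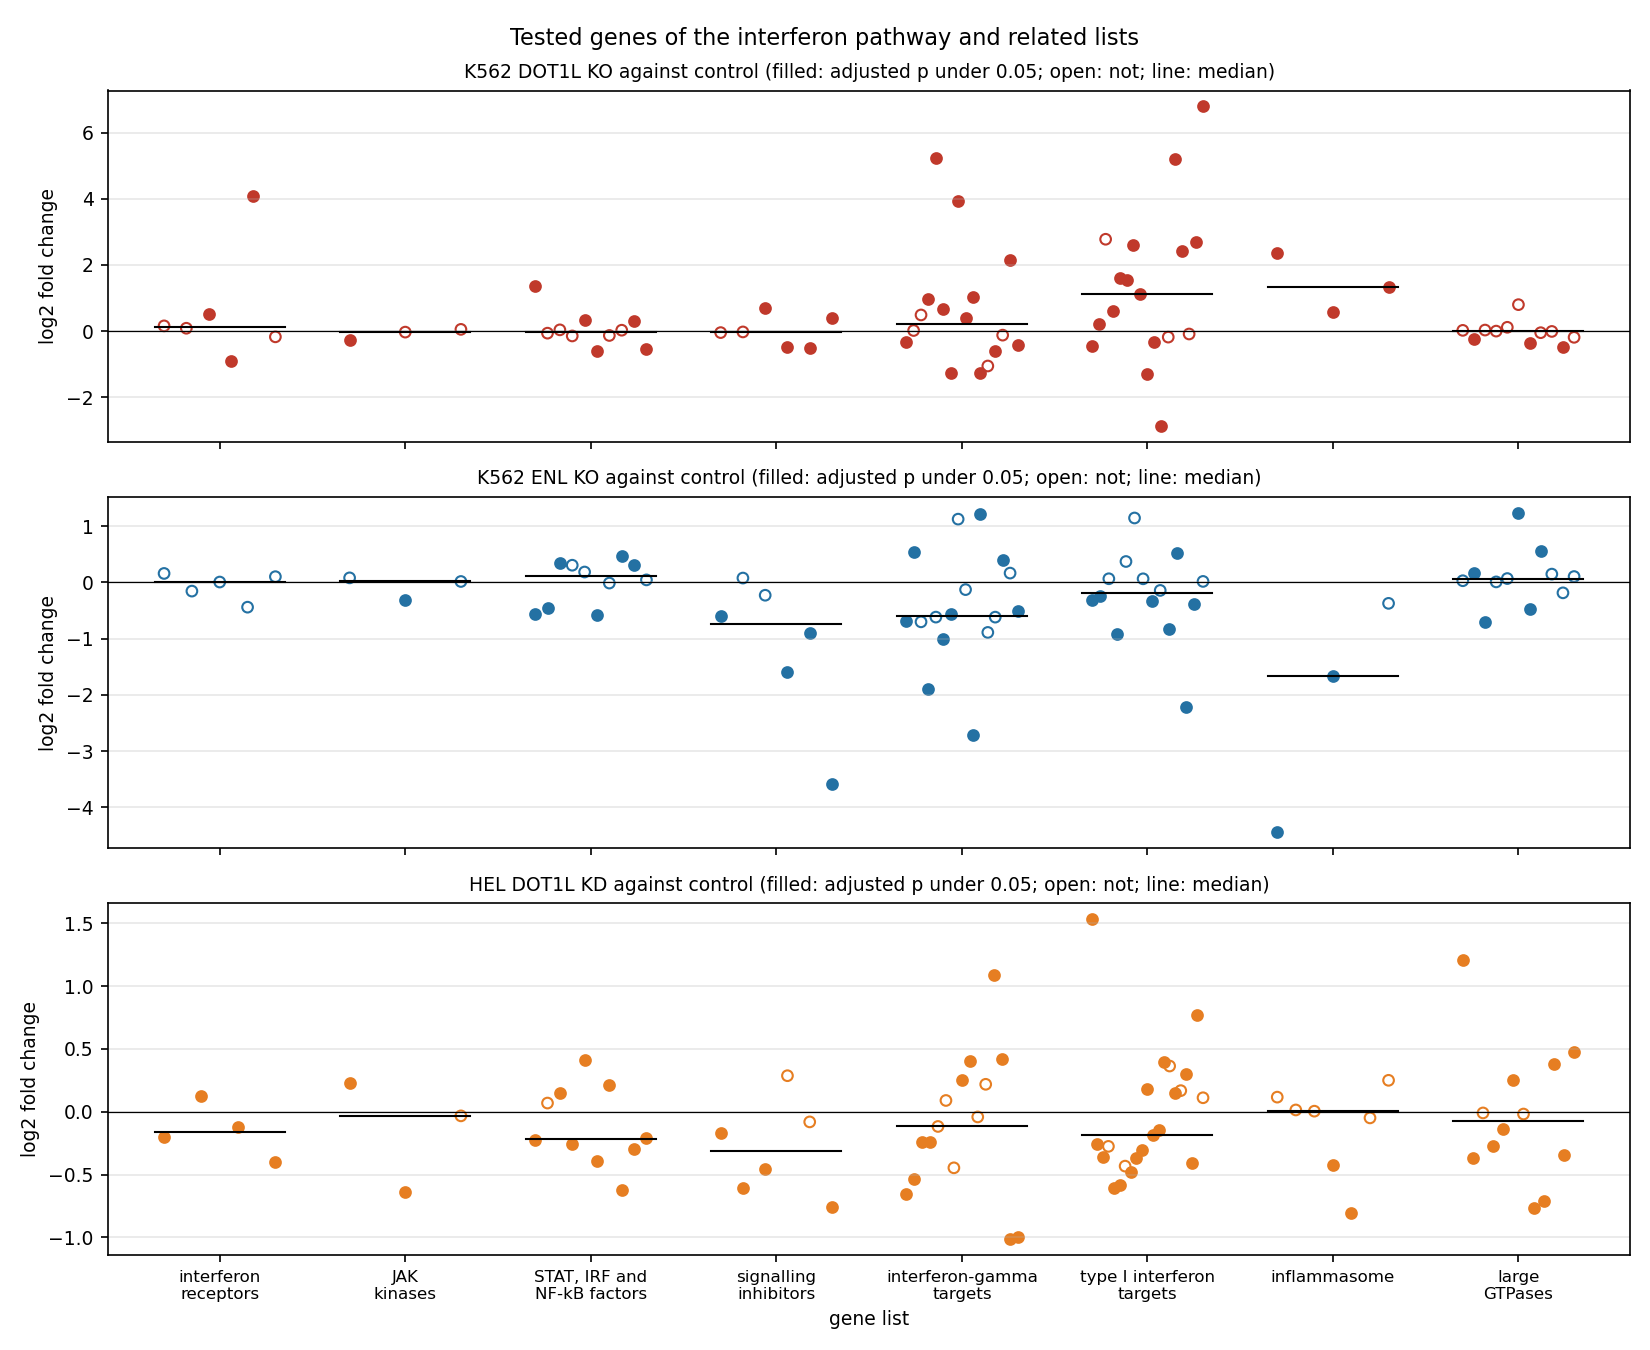
Log2 fold change (vertical axis) of tested genes in 8 lists (horizontal axis) for 3 comparisons, with filled points past the threshold, open points not, and lines for the median of the genes shown, leaving out genes with no counts in a group or at most 3 counts in every library of both. Type I interferon targets lie mostly above 0 in the DOT1L KO, where the median over all 18 tested is 1.33. Of the 11 higher genes, 5 passed the filter through knockout libraries alone, and 26.9% of all genes tested were higher.

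Markers of cell types in which these genes are common moved with the family in part. The summed level of 8 monocyte and macrophage markers was 88.8 to 89.2 CPM in the K562 controls, 357 to 389 in the DOT1L KO, but 66.7 to 72.6 in the ENL KO. It was 158 to 161 in the HEL controls and 137 to 139 in the HEL KD. In the DOT1L KO most of the sum was LYZ, which went from 34.0 to 310 CPM. SPI1 went from 24.5 to 47.4 CPM, ITGAM from 3.17 to 7.58, MRC1 from 0 to 0.955 and CSF1R from 0.0469 to 0.431, while CD68 went from 26.6 to 9.40, CD14 from 0.539 to 0.389 and FCGR1A from 0.141 to 0.115. There 4 of the 8 markers reached 1 CPM, the same number as in the controls. FCGR1A was at 0 in the ENL KO and the HEL controls.

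Summed lymphocyte markers (6 genes) went the other way, from 54.0 to 55.6 CPM in the K562 controls to 17.4 to 21.8 CPM in the DOT1L KO, and MS4A1 was at 0 in all 5 groups. Megakaryocytic markers (8 genes) were at 7.35 to 9.93 CPM in the controls, 33.3 to 35.1 in the DOT1L KO, and the ENL KO had 29.5 to 36.9, and GP1BB was at 0 throughout. In HEL they were at 2618 to 2672 CPM in the controls and 2078 to 2082 in the KD. Endothelial markers (4 genes) were at no more than 0.142 CPM in the K562 controls and at 5.87 to 6.49 in the DOT1L KO. Nearly all of that sum was TEK, at 5.83 CPM, whereas VWF was at 0.271, KDR at 0.0303 and CDH5 at 0. The part of these markers in the levels of the GBP genes was not tested.

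The K562 profile most like that of GBP4 was sought among 1384 genes with a mean of at least 1 CPM in a group and group means at least 2 log2 units apart. Over the 8 K562 libraries, which form 3 groups, the 5 genes outside the family with the highest Pearson r of log2 CPM were FEZ1 (0.991), ZNF660 (0.988), RUNDC3A (0.988), ABCA8 (0.987) and SPARC (0.987). FEZ1 encodes an adaptor of the motor protein kinesin, ABCA8 a membrane transporter and SPARC a secreted matrix protein. They lie on other chromosomes. SPARC, for example, stood at 19.3 CPM in the controls, 160.7 in the DOT1L KO, with 74.1 in the ENL KO. Within the family GBP5 was closest to GBP4 with r = 0.951, and 33 genes were closer. GBP3 had r = 0.889, GBP2 had 0.855 and GBP1 had 0.727. Points of 1 group share their condition, so these values describe the order of 3 group levels more than the spread within groups.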

How the data were processed

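The authors deposited whole-number counts per gene: fragment counts for K562 and read counts for HEL, with exon positions and exonic lengths, per the file headers. Libraries were stranded and made from polyadenylated RNA with the dUTP method, per the labels' protocols. The submitters' processing notes name fastp 0.13.1, HISAT2 2.1.0, Bowtie2 2.3.4.1, featureCounts 1.6.1 and deepTools without their roles, and the use of strand in counting is not given in the sources used here. Other assays of the series were not used here.

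Columns 2 and 3 of the K562 control were identical, whereas chi-square divided by its degrees of freedom was 4.24 to 10.2 for the other K562 replicate pairs, so they entered as 1 library. For the HEL pairs it was 1.48 (controls) and 1.33 (KD), a small spread on which the HEL p-values rest. Each table was fitted on its own with edgeR 4.0.16 in R 4.3.3 (filterByExpr, minimum count 10, minimum total 15; TMM; glmQLFit and glmQLFTest; Benjamini-Hochberg over all genes tested, threshold 0.05). All K562 groups shared 1 fit over 14301 genes, and HEL had 12635. The SE was derived from the F statistic. Pooled ratios have exact conditional Clopper-Pearson 95% intervals. The fit was tested on simulated data. Alternatives were other scalings, no filter, DESeq2 1.42.0, a replicate block, single groups and left-out libraries.

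Named genes were the members, GBP6, GBP7, GBP1P1, the targeted genes, the nearest neighbours, and per list up to 3 genes with the largest change among those past the threshold with at least 1 CPM in a group and groups that do not overlap. The values of a gene that this rule named are not reported here. The members, lists and rules were chosen with earlier results of these data known.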

Additional observations from a re-analysis of the deposited data

Results flagged for a closer look

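In 4 of the 5 genes every library of the HEL DOT1L KD lay below its controls while every library of the K562 DOT1L KO lay above its own. Taken alone, the first held for 37.2% of the genes tested in HEL and the second for 35.2% of those tested in K562. The share of genes with both was not counted, so nothing is read from the count of members. The log2 fold change in HEL minus that in K562 was -7.46 for GBP4, -7.10 for GBP5, -5.78 for GBP1 and -4.42 for GBP2. The difference was not tested, and the K562 values were those that chose the family. The cell line, the kind of manipulation and the counting unit differ together between these comparisons and cannot be told apart.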

How the results depend on the processing

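The log2 fold change of GBP4 in the DOT1L KO kept its direction under every alternative run and ranged from 6.00 to 7.72 when 1 library was left out, the highest without control 1. With columns 2 and 3 of the control as separate libraries, an alternative chosen after seeing the data, it was 6.90. The number of members past the threshold in the ENL KO was 3, and 2 to 3 with 1 library left out, a count that includes GBP4, chosen on these controls, and GBP5, admitted by the filter through knockout libraries. Nothing is read from that count, and 18.8% of all genes tested passed as higher there. The number was 2 under upper-quartile scaling, library totals, DESeq2, only the 2 groups compared and a log2 fold change of at least 1, with GBP2 as the call lost. In HEL, where 28.0% of all genes tested passed as lower, the number was 4, and 3 to 4 with 1 library left out. It was 3 with no filter and with DESeq2, with GBP5 as the call lost, and 1 when a log2 fold change of at least 1 was also asked for. Pathway counts ranged with 1 library left out from 37 to 49 in the DOT1L KO, 29 to 36 in the ENL KO and 52 to 55 in the HEL KD. The sign of GBP1 in the ENL KO, where both groups lay at or under the floor, turned to -0.37 without control 1 and to -2.34 without ENL KO 1, in a range up to 2.83 without control 2. That of GBP3 in the HEL KD turned to 0.060 under upper-quartile scaling and 0.023 under library totals. The cause of these changes was not tested. With replicate number as a block the counts were 3 members in the ENL KO, 4 in HEL, and 50, 37 and 57 pathway genes, and the log2 fold change of GBP4 in the DOT1L KO was 6.65. The labels do not say that a number marks anything shared. Deviations of same-numbered DOT1L KO and ENL KO libraries correlated at 0.503, 0.077 and 0.236. Those of same-numbered controls correlated with the DOT1L KO at 0.321 and 0.204 and with the ENL KO at 0.312 and 0.056. Those of HEL pairs correlated at -0.0027. K562 libraries numbered 1 correlated at -0.425 to -0.056 with differently numbered libraries of the other groups. The main fit did not pair libraries by number, and whether same-numbered K562 libraries share anything was not tested. DOT1L KO 2 correlated more with ENL KO 3 (0.232) than with ENL KO 2. Low control counts limit the size of every K562 change, though that of GBP2, with 14 fragments in each control, less than the others.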

Other observations

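Partners of the GBP coat in cell death and inflammation were read from a list of 9 inflammasome genes. In the DOT1L KO all 3 that could be tested were higher, as were 26.9% of all genes tested. Those not tested had at most 11 fragments in a library. Of these, GSDMD had 5 and 8 in the controls against 0 to 2 in the DOT1L KO. CASP1, AIM2 and IL1B were higher in every DOT1L KO library than in the controls, as were 35.2% of all genes tested. Their counts were low: CASP1 had 0 in the controls against 2 to 6 fragments in the DOT1L KO. AIM2 had 3 to 4 against 7 to 8, and IL1B had 0 to 1 against 2 to 11. Nothing is read from these counts, and these genes lie outside the naming rule. CASP4, the caspase recruited by GBP proteins, rose by 2.36 on the log2 scale (SE 0.22), from 0.890 ± 0.188 CPM (SD, n = 2) to 4.59 ± 0.139 CPM (SD, n = 3). PYCARD, the adaptor ASC, rose by 1.35 (SE 0.19) and the cytokine IL18 by 0.58 (SE 0.21), the latter a call lost without control 1 (log2 fold change 0.41) or DOT1L KO 2 (0.46). In the ENL KO 2 of 3 were lower (22.2% of all genes tested were), among them IL18, which fell by 1.66 (SE 0.27). CASP4, outside the naming rule there, had 16 and 22 fragments in the controls against at most 1 in an ENL KO library. In the HEL KD 2 of 7 were lower (28.0% of all genes tested were), IL1B by a log2 fold change of -0.81 (SE 0.04) and IL18 by -0.42 (SE 0.10).

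Large GTPases outside the GBP family, such as the atlastins and dynamins, were read from a list of 13 genes. In the DOT1L KO none of 11 tested was higher with edgeR and 3 were lower (27.3%, against 51.1% of all genes tested). In the ENL KO 3 were higher and 2 lower of 11 (45.5%, against 41.0%). In the HEL KD 4 were higher and 6 lower of 12 (83.3%, against 55.0%).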
